A study of Mus musculus with 13 samples.

Results

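Excitation-contraction coupling is the chain of events by which an action potential on a muscle fibre releases calcium from the sarcoplasmic reticulum, and the genes described here encode its parts. The list holds 38 genes: the voltage sensor and the release channel, the proteins that build the triad, the calcium store, store-operated entry and cytosolic calcium handling, the channels that set membrane excitability, the sodium-potassium pump and the mitochondrial calcium uniporter. Of these, 37 were among the 16382 genes of the deposited tables, and Sln, which encodes sarcolipin, an inhibitor of the calcium pump, was not analysed here. A mean normalized count of 10 or more over all libraries was required, and 36 of the 37 met it. The chloride channel gene Clcn1 lay just inside this limit, with a mean of 10.2, and Pln, which encodes the calcium pump inhibitor phospholamban, lay outside it at 2.76. Clcn1 did not pass the filter of the test on low counts, so that 35 members were tested among 13142 genes.

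RNA-seq was performed on wild-type C2C12 myotubes, the multinucleated cells formed when a mouse myoblast line fuses in low-serum medium. On day 8 of differentiation the myotubes received the vehicle DMSO (CON) or 10 μM palmitoylethanolamide (PEA), an endogenous lipid amide, for 24 h, and each group had 6 libraries. All libraries came from a single cell line in culture, without nerve, and unfused myoblasts remain in such cultures. The methods describe duplicate wells, as technical replicates, in repeated experiments, so the 6 libraries of a group come from fewer than 6 experiments. The labels do not tie wells to experiments. The p-values and intervals therefore treat libraries as independent, and part of the spread that they measure lies between duplicate wells.

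In skeletal muscle the voltage sensor in the T-tubule membrane, a calcium channel of the dihydropyridine receptor type, touches the ryanodine receptor of the sarcoplasmic reticulum at the triad. A depolarization moves the sensor, the ryanodine receptor opens, and calcium stored on calsequestrin and other luminal proteins flows to the myofilaments until the SERCA pumps return it. Cultured myotubes assemble this machinery late in differentiation and express cardiac or slow-type isoforms beside the fast ones.

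Normalized counts are estimated read counts divided by a factor for each library. Libraries held 12354845 to 50397444 estimated counts, and CON 1 was the deepest. Of 31 sarcomere and myotube genes listed, 30 were counted, and their summed normalized counts were 244757 to 360078 in CON and 252420 to 281351 in PEA. Genes of immune and endothelial cells summed to 58.4 to 138 in CON and 81.9 to 139 in PEA, nearly all of it from Cd68 (mean 98.2), while Ptprc, Pecam1, Cdh5 and Kdr each had a mean below 10. Library CON 3 had the lowest level of its group in 23 of the 35 members tested, whereas 23.5% of all genes tested were lowest in CON 3. Over all genes tested CON 2 was lowest nearly as often (21.8%). CON 6 also lay below the mean of all libraries in 22 members, against 29 in CON 3. The calls, the medians by role and the spread are given with and without CON 3, and so are the values of several members beside their results. Library PEA 2 was the highest of all libraries in 3 of 6 cardiac muscle genes and not in the other 3.

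Differences between PEA and CON were tested with edgeR's quasi-likelihood test, with Benjamini-Hochberg adjustment over all genes tested and a threshold of 0.05, and are given as log2 fold changes, PEA minus CON, with their standard errors (SE). Hrc, Jsrp1 and Cacng1 were lower in PEA, and no member was higher. Thus 3 of 35 members (8.57%) passed the test, against 11.0% of all genes tested. In the lower direction the background was 4.74%, and in the higher direction, where 0 members passed, it was 6.31%. Without CON 3, 6 of 35 members passed, against 8.58% of all genes tested. Only Hrc passed without CON 5, PEA 4 or PEA 6, against 7.54%, 7.28% and 5.89% of all genes tested. DESeq2 and limma-voom also called 0 members as higher, and 7 members had an unadjusted p below 0.05 in edgeR (20%, against 27.4% of all genes tested). The median log2 fold change was -0.07 over the members (-0.10 without CON 3, -0.03 without CON 2, and -0.04 without CON 1, CON 5 or PEA 4) and 0.01 over all genes tested, and 23 of the 35 members had a negative value. Leaving out 1 library moved the log2 fold change by more than 1.5 times, or turned its sign, for 25 of the 35 members, none of them called, and 19 of these were moved so by CON 3. For 0 of the members the CON and PEA libraries were fully apart in normalized count, while 4.34% of all genes tested were. In bulk samples, fewer myotubes and less of a transcript per myotube cannot be told apart.

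The start sites of these 3 genes are shown because Hrc and Jsrp1 each hold the E-box CAGCTG, a hexamer bound by myogenic basic helix-loop-helix factors, close to the annotated start. Sequences were read from GRCm39, 5′ to 3′ on the strand of the gene and ending at the base before the start of the canonical transcript, with the E-box in capitals. The Hrc and Cacng1 sequences cover 250 bases at chr7:44984431-44984680 (plus strand) and chr11:107607409-107607658 (minus strand). For Jsrp1 the 30 bases at chr10:80649371-80649400 (minus strand) are given, since other annotated transcripts of this gene start farther upstream.
Hrc: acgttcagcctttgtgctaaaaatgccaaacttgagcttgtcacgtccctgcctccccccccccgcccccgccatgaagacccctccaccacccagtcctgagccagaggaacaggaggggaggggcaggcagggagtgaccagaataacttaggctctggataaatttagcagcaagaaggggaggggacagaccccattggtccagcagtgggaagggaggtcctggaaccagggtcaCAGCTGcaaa
Jsrp1: tccaattggtgtcccCAGCTGtctctggcc
Cacng1: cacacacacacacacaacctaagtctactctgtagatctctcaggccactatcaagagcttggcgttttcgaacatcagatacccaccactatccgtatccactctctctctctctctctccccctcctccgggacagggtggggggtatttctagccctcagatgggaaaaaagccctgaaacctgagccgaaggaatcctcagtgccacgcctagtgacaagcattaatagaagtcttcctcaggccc
The first base of the hexamer lay 10 bases before the start in Hrc and 15 bases before it in Jsrp1. The Cacng1 window did not hold these letters. The hexamer is a palindrome, so 1 search covers both strands. Among the 35 members tested, 7 windows of 250 bases held it (20%), against 1479 of 13130 windows of all genes tested (11.3%). The other members with a match were Casq2, Cav3, Fkbp1a, Kcnj2 and Orai1, none of which passed the test. A match describes letters only.

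**Figure D1:**
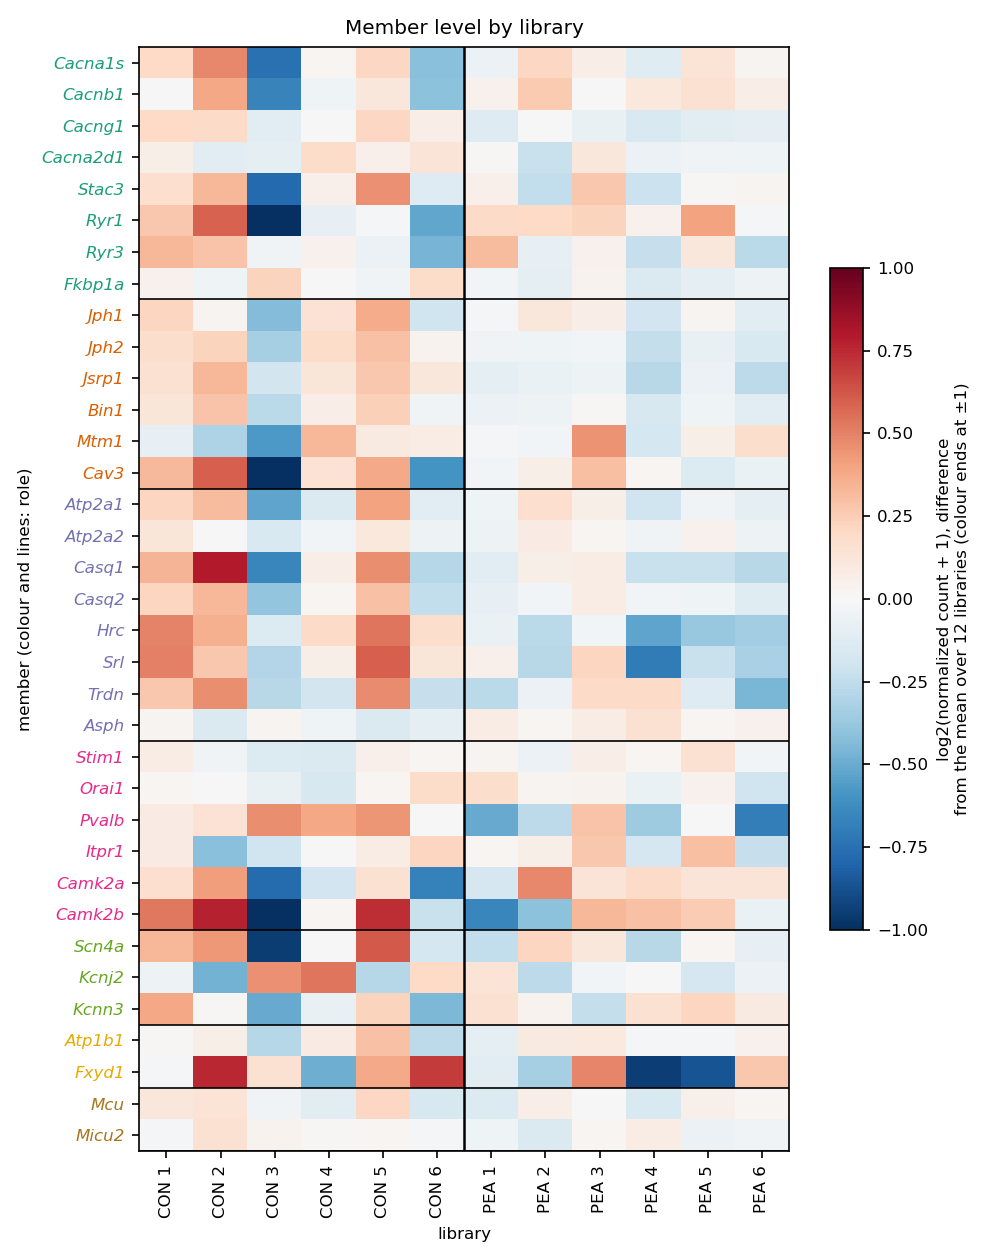
Levels of the 35 members tested in the 12 libraries, as log2(normalized count + 1) minus the mean of the member over all libraries, with rows grouped by role and columns by library. CON 3 is blue in most rows, CON 1, CON 2 and CON 5 are red in most, and the PEA libraries differ less among themselves than the CON libraries.

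Within the calcium store, Hrc was lower in PEA, and the other 7 members tested did not pass. Hrc encodes the histidine-rich calcium-binding protein of the sarcoplasmic reticulum lumen, which binds calcium and triadin. The gene (ENSMUSG00000038239) lies on chromosome 7 from 44984681 to 44988401. The lowest CON library had 1694 normalized counts of Hrc, the median was 2260 and the highest was 2709. In PEA the lowest library had 1292, the median was 1507 and the highest 1829. Every PEA library lay below the CON median, and only CON 3 lay within the PEA range. The mean was 2277 ± 379 in CON and 1558 ± 208 in PEA (± SD, n = 6 libraries each), a log2 fold change of -0.55 (SE 0.10, adjusted p = 0.00452 in edgeR), or 0.685 times the CON level with a 95% interval from 0.588 to 0.797. Hrc passed the test with each of the 12 libraries left out in turn, with adjusted p-values from 0.000529 to 0.0159.

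Srl encodes sarcalumenin, another calcium-binding protein of the lumen, and had the next largest negative value of the store. Its normalized counts were 2438, 3415 and 4520 in CON (lowest, median, highest) and 1835, 2511 and 3464 in PEA. The groups overlapped widely, and the log2 fold change of Srl was -0.42 (SE 0.15, adjusted p = 0.0711). With 1 library left out the value stayed between -0.51 and -0.33, but the call depended on the library. Srl passed in 2 of 12 such fits, without CON 3 (-0.50, adjusted p = 0.0222) and without PEA 3 (-0.51, adjusted p = 0.033). It was weaker without PEA 4 (-0.33, adjusted p = 0.144) or CON 5 (-0.34, adjusted p = 0.153). The skeletal calsequestrin Casq1, the main calcium buffer of the store in fast fibres, had a log2 fold change of -0.31 (95% interval -0.67 to 0.06, adjusted p = 0.27), and its range in CON, from 625 to 1705 normalized counts, enclosed all PEA libraries, at 811 to 1035. Casq1 had -0.43 without CON 3 (adjusted p = 0.0553) and -0.15 without CON 2 (adjusted p = 0.531). The cardiac and slow-fibre form Casq2 had -0.10 (adjusted p = 0.58).

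Asph was the member closest to the threshold in the higher direction. Its locus encodes an aspartate beta-hydroxylase and also junctin and junctate, shorter proteins of the reticulum membrane. Asph had 1579, 1662 and 1783 normalized counts in CON (lowest, median, highest) and 1771, 1818 and 1947 in PEA. All 6 PEA libraries lay above the CON median, and the ranges met only at their ends. The log2 fold change of Asph was 0.13 (SE 0.05, adjusted p = 0.0774). Triadin, which anchors calsequestrin to the release channel, was measured as Trdn at 192 to 324 normalized counts in CON and 169 to 266 in PEA (log2 fold change -0.19, adjusted p = 0.453). Counts are per gene, so the products of Asph and of Trdn cannot be told apart.

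The SERCA pumps did not pass the test. Atp2a2, the slow and cardiac pump, had 8363 to 10113 normalized counts in CON and 8976 to 9822 in PEA, and the 95% interval of its log2 fold change ran from -0.10 to 0.11. Atp2a1, the fast-fibre pump, had a log2 fold change of -0.08 (95% interval -0.33 to 0.18, adjusted p = 0.728). Phospholamban was close to 0: Pln was listed at 0 in 5 CON and 5 PEA libraries, at 0.766 normalized counts in CON 1 and at 32.4 in PEA 2, the library that was also highest in some cardiac muscle genes.

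The triad and T-tubule members had 5 negative values out of 6, and Jsrp1 passed the test. Jsrp1 (ENSMUSG00000020216, chromosome 10, 80643923 to 80649470) encodes a junctional protein, JP-45, that binds the voltage sensor and calsequestrin. It had 929, 1163 and 1329 normalized counts in CON (lowest, median, highest) and 872, 999 and 1018 in PEA. CON 3 held the lowest CON value, and the other 5 CON libraries lay above all PEA libraries. The mean was 1167 ± 138 in CON and 964 ± 68.3 in PEA (± SD, n = 6 libraries each). The log2 fold change of Jsrp1 was -0.27 (SE 0.07, adjusted p = 0.0277 in edgeR). The call was lost without CON 5 (adjusted p = 0.0618), PEA 4 (0.0652) or PEA 6 (0.0718), at a value of -0.25 in each.

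The junctophilins tether the reticulum to the T-tubule. Jph2 had 4265, 6070 and 6555 normalized counts in CON (lowest, median, highest) and 4547, 5141 and 5248 in PEA, so that CON 3 lay below every PEA library and the CON median above all of them. Its log2 fold change was -0.20 (SE 0.08, adjusted p = 0.113), -0.27 without CON 3 (adjusted p = 0.00409) and -0.16 without CON 5 (adjusted p = 0.227). Jph1 had -0.06 (95% interval -0.28 to 0.16). Bin1, whose product amphiphysin-2 curves the T-tubule membrane, behaved like Jph2 with respect to CON 3, at -0.14 (adjusted p = 0.217) with all libraries and -0.21 (adjusted p = 0.0277) without it. The value of Bin1 was -0.10 without CON 2 (adjusted p = 0.354) and -0.11 without CON 5 (adjusted p = 0.389). Jph2 and Bin1 each passed in 1 of the 12 fits with a library left out. The phosphoinositide phosphatase gene Mtm1 had 0.15 (adjusted p = 0.547) and the caveolin gene Cav3 had -0.04 (adjusted p = 0.915) and an interval from -0.46 to 0.38, within which a change of either sign was not detectable. Without CON 3 the value of Cav3 was -0.19 (adjusted p = 0.476) and without CON 2 it was 0.09.

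**Figure D2:**
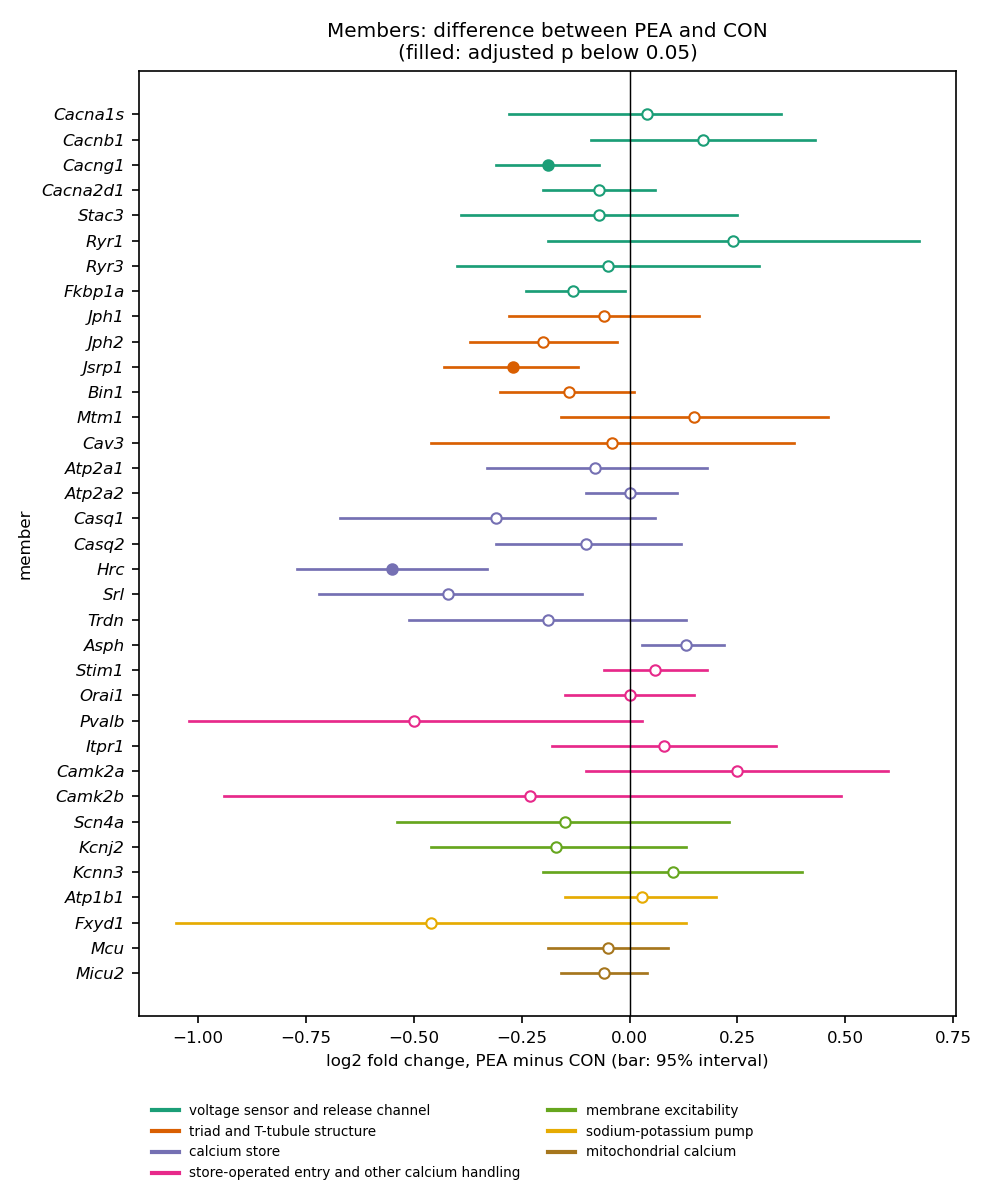
Log2 fold change of each of the 35 members tested, PEA minus CON, with its 95% interval from edgeR, coloured by role. Filled points (Cacng1, Jsrp1, Hrc) passed the threshold of 0.05 on the adjusted p, all below 0, and the widest intervals are those of Camk2b, Fxyd1 and Pvalb, which have low counts.

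Among the 8 genes of the voltage sensor and release channel, 1 passed the test. Cacng1 (ENSMUSG00000020722, chromosome 11, 107591493 to 107607408) encodes the gamma subunit of the skeletal voltage sensor, which limits the calcium current through it. It had 4512, 5356 and 5649 normalized counts in CON (lowest, median, highest) and 4397, 4545 and 4888 in PEA. All 6 PEA libraries lay below the CON median, and CON 3 and CON 4 lay within the PEA range. The mean was 5229 ± 470 in CON and 4582 ± 171 in PEA (± SD, n = 6 libraries each), a log2 fold change of -0.19 (SE 0.06, adjusted p = 0.0405 in edgeR). This call was close to the threshold and was lost when the trend of counts with exon length was removed (-0.17, adjusted p = 0.0739), while the value lay between -0.19 and -0.17 in all 8 alternative fits that kept all libraries. It held without CON 3 (adjusted p = 0.00875), CON 4 or PEA 2 and was lost without any 1 of the other libraries, namely CON 1, CON 2, CON 5, CON 6, PEA 1, PEA 3, PEA 4, PEA 5 and PEA 6, with adjusted p-values from 0.0513 to 0.0884 and values from -0.19 to -0.17.

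The other subunits of the sensor gave no call. Cacna1s, the pore and voltage sensor itself, had 451 to 1060 normalized counts in CON and 699 to 879 in PEA (log2 fold change 0.04, 95% interval -0.28 to 0.35). Cacnb1, the intracellular beta subunit, had 0.17 (adjusted p = 0.409), Cacna2d1, the extracellular subunit, had -0.07 (adjusted p = 0.477), and Stac3, an adaptor needed for coupling, had -0.07 (adjusted p = 0.811). The intervals of Cacna1s and Stac3 were wide because their CON libraries were spread.

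Ryr1, the skeletal release channel, showed the same spread. Its normalized counts were 618, 1439 and 2248 in CON (lowest, median, highest) and 1474, 1710 and 1970 in PEA, and every PEA library lay inside the CON range. The log2 fold change of Ryr1 was 0.24 (SE 0.20, adjusted p = 0.479), with 0.08 without CON 3 (adjusted p = 0.751) and 0.41 without CON 2 (adjusted p = 0.126). Ryr3, a second release channel of immature muscle, had 51.9 to 91.1 normalized counts in CON and 59.7 to 89.9 in PEA. Fkbp1a, which encodes the immunophilin FKBP12 bound to the release channel, had -0.13 (SE 0.05, adjusted p = 0.13).

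**Figure D3:**
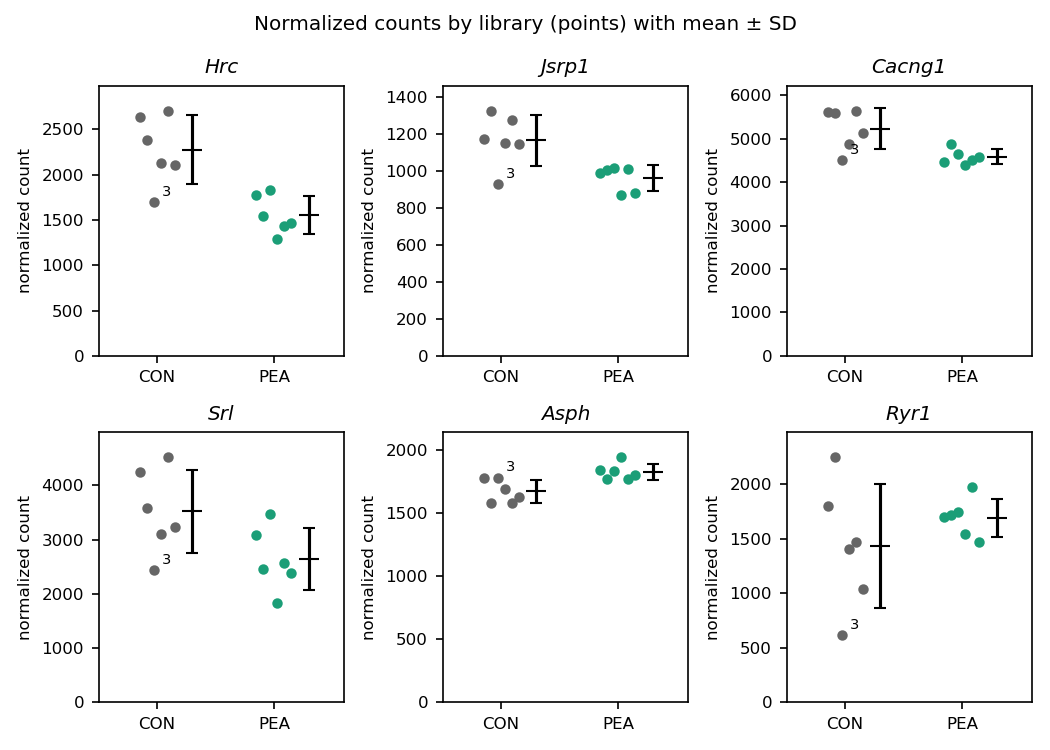
Normalized counts of Hrc, Jsrp1, Cacng1, Srl, Asph and Ryr1 in each library (points) with the mean and SD of the group beside them, CON 3 marked by its number, on axes that start at 0. Hrc, Jsrp1 and Cacng1 have most CON points above the PEA points, and in Ryr1 all PEA points lie inside the CON range of 618 to 2248.

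Store-operated entry and cytosolic calcium handling held 6 members, of which 0 passed the edgeR test and 0 had an unadjusted p below 0.05. DESeq2 and limma-voom also called 0 of them. Stim1, the calcium sensor of the reticulum, had 592 to 691 normalized counts in CON and 628 to 729 in PEA, and Orai1, the entry channel that it opens, had 474 to 601 and 460 to 597. The 95% interval of the log2 fold change was -0.06 to 0.18 for Stim1 and -0.15 to 0.15 for Orai1. Itpr1, an inositol trisphosphate receptor, had 0.08 (adjusted p = 0.715). The calcium/calmodulin kinase genes had wide intervals, with 0.25 for Camk2a (-0.10 to 0.60) and -0.23 for Camk2b (-0.94 to 0.49). With 1 library left out, Camk2a ranged from 0.14 (without CON 3) to 0.37 (without CON 2) and Camk2b from -0.42 (without CON 3) to -0.09 (without CON 2). Pvalb, the cytosolic calcium buffer of fast fibres, was low, with 11.0 to 25.7 normalized counts over all libraries, and its log2 fold change of -0.50 (SE 0.25, adjusted p = 0.208) was not distinguishable from 0 at this depth.

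The 3 membrane channels tested also gave no call in edgeR, DESeq2 or limma-voom, and 0 had an unadjusted p below 0.05 in edgeR. The sodium channel Scn4a, which carries the action potential, had 217, 475 and 641 normalized counts in CON (lowest, median, highest) and 345, 411 and 486 in PEA (log2 fold change -0.15, adjusted p = 0.633). The value of Scn4a was -0.30 without CON 3 (adjusted p = 0.144) and -0.04 without CON 5 (adjusted p = 0.906). Kcnj2, an inward rectifier that sets the resting potential, had -0.17 (adjusted p = 0.475) and ran against most members among the CON libraries, with 1165 and 1228 normalized counts in CON 3 and CON 4 and 612 in CON 2. Kcnn3, a calcium-activated potassium channel, had 0.10 (adjusted p = 0.69). Clcn1, the chloride channel of mature fibres, had 0 to 30.9 normalized counts in CON and 3.3 to 15.6 in PEA and was not tested.

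The sodium-potassium pump and mitochondrial members were the remaining roles, and edgeR, DESeq2 and limma-voom called 0 of these 4 genes, with 0 at an unadjusted p below 0.05 in edgeR. Atp1b1, the beta subunit of the pump, had 880 to 1314 normalized counts in CON and 1001 to 1143 in PEA (log2 fold change 0.03, 95% interval -0.15 to 0.20). Fxyd1, the pump regulator phospholemman, had 28.0 to 67.6 in CON and 20.2 to 56.1 in PEA, and its log2 fold change was -0.46 (SE 0.28, adjusted p = 0.309). Mcu, the pore of the mitochondrial calcium uniporter, and Micu2, its gatekeeper, had narrow intervals of -0.19 to 0.09 and -0.16 to 0.04.

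By role, the median log2 fold change was -0.14 for the 8 calcium store members tested, -0.10 for the 6 triad and T-tubule members and -0.06 for the 8 members of the sensor and release channel. It was -0.22 for the 2 pump members, -0.06 for the 2 mitochondrial members, -0.15 for the 3 excitability members and 0.03 for the 6 members of entry and calcium handling. Single libraries moved these medians by more than 1.5 times, except that of the pump. Without CON 3 the median was -0.22 for the store, -0.20 for the triad, -0.08 for excitability and 0.01 for entry and handling, and, with smaller moves, -0.08 for the sensor, -0.25 for the pump and -0.06 for the mitochondrial members. For the store it was -0.07 without CON 2 and -0.08 without CON 5, and for the triad -0.05 without CON 5 and -0.16 without CON 6. For the sensor it was -0.01 without CON 1 or CON 2, -0.02 without PEA 4 and -0.03 without CON 5 or PEA 2. Excitability had -0.08 without CON 2, -0.07 without CON 4 and -0.04 without CON 5, and the mitochondrial members had -0.03 without CON 2. Entry and handling had 0.01 without CON 2, CON 4, PEA 1 or PEA 5, 0.05 without CON 6 and 0.06 without PEA 6. The 3 calls fell to the store, the triad and the voltage sensor with 1 each. The difference between roles was not tested.

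The members were also spread more between the CON libraries than between the PEA libraries. The SD of log2 CPM (counts scaled to a common library size) was larger in CON than in PEA for 31 of 35 members (88.6%), against 65.4% of all genes tested. The median SD of the members was 0.29 in CON and 0.13 in PEA, and over all genes tested it was 0.15 and 0.12. Without CON 3 the SD was larger in CON for 28 of 35 members (80%, against 60.1% of all genes tested), with a median SD of 0.23 in CON. With each other library left out the number was 29 to 32. The widest CON spread was that of Camk2b (SD 0.84, against 0.39 in PEA), followed by Ryr1 (0.65 and 0.15), Cav3 (0.62 and 0.15) and Scn4a (0.56 and 0.20). Fxyd1, Pvalb, Orai1 and Micu2 were spread more in PEA than in CON. Averaged over the members, the log2 CPM of CON 3 lay 0.34 below the mean of all libraries (-0.34), whereas CON 1, CON 2 and CON 5 lay above it by 0.17, 0.21 and 0.23. The PEA libraries lay between -0.13 and 0.10. The sarcomere and myotube genes moved with these libraries, with averages of -0.37 in CON 3 and 0.37, 0.36 and 0.42 in CON 1, CON 2 and CON 5, and their SD was larger in CON for 28 of 30 genes. The genes of dividing cells were lower still in CON 3, with an average of -1.15, and had a larger SD in CON for 12 of 12 genes (median SD 0.44 in CON and 0.14 in PEA). They averaged -0.39, 0.28 and -0.30 in CON 1, CON 2 and CON 5. The larger spread in CON and the low position of CON 3 were thus not particular to the members. The gene lists share these libraries, so their likeness is a description.

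**Figure D4:**
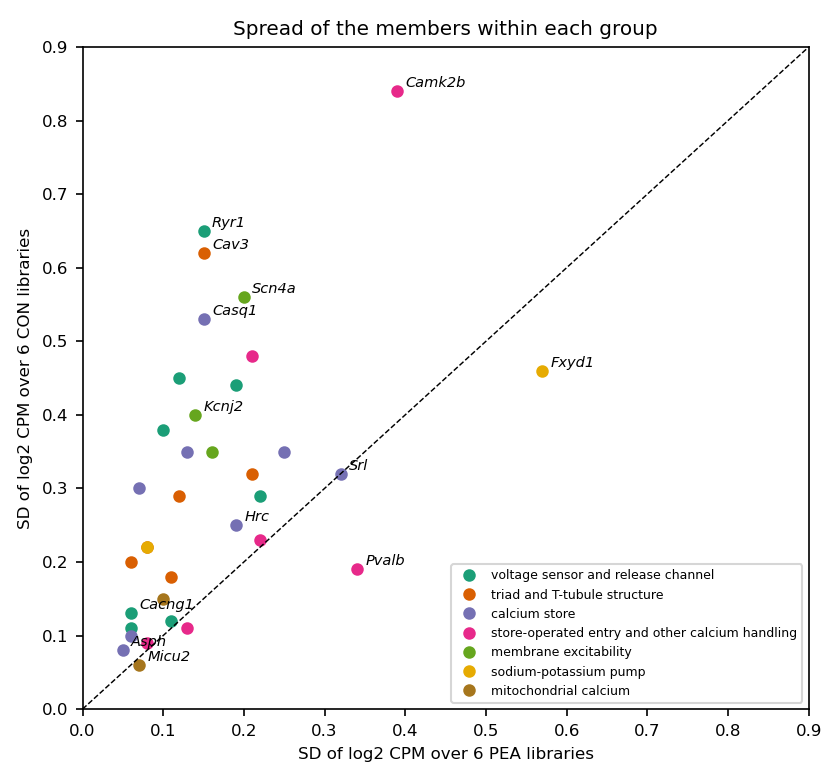
SD of log2 CPM over the 6 CON libraries (vertical axis) against that over the 6 PEA libraries (horizontal axis) for the 35 members tested, coloured by role, with the dashed line marking equal spread. Of the members, 31 lie above the line, and Ryr1, Cav3, Scn4a and Casq1 lie far above it.

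Among the markers of other cell states, those of dividing cells differed most often between the groups. Of 12 genes of dividing cells, 11 were higher in PEA (91.7%, against 6.31% of all genes tested), with summed normalized counts of 4242 to 10450 in CON and 10150 to 11834 in PEA. Of 30 sarcomere and myotube genes tested, the 8 that passed were lower (26.7%, against 4.74% of all genes tested), and of 9 myogenic factors tested 2 were lower (22.2%). The other lists had at most 2 called genes each. Genes of undifferentiated myoblasts summed to 12632 to 14641 in CON and 12701 to 13744 in PEA, with 1 lower and 1 higher of 10. Genes of smooth muscle and fibroblasts summed to 39817 to 53270 in CON and 38769 to 45764 in PEA, with 1 lower and 1 higher of 7 tested. Cardiac muscle genes summed to 3117 to 4662 in CON and 2226 to 3367 in PEA, with 1 of 5 lower. Library PEA 2 was the highest in 3 of the 6 cardiac genes counted. Nppa, the atrial peptide gene, had 15.1 normalized counts in PEA 2 and was listed at 0 in all other libraries of both groups. Myh6, the atrial myosin gene, had 211 in PEA 2, 42.9 to 62.7 in the other PEA libraries and 25.1 to 75.8 in CON, and Tnni3, cardiac troponin I, had 28.9 in PEA 2, 2.02 to 15.3 in the other PEA libraries and 10.2 to 25.8 in CON. In the other 3 genes PEA 2 was not the highest of all libraries. It had 22.0 normalized counts of the natriuretic peptide gene Nppb (12.6 to 37.6 in CON, 21.9 to 38.4 in the other PEA libraries) and 91.5 of the myosin light chain gene Myl2 (28.5 to 102 and 41.0 to 85.6). Actc1, cardiac actin, had 2270 in PEA 2, 2069 to 3214 in the other PEA libraries and 3006 to 4500 in CON. Hrc, Jsrp1 and Cacng1 passed the test without PEA 2. Neuron and glia genes summed to 522 to 751 and 751 to 1014, with 1 of 2 tested higher. The part of these cell states in the lower values of Hrc, Jsrp1 and Cacng1 was not tested.

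Levels of paired genes were compared within each library as the log2 ratio of normalized counts (plus 1), and the groups were compared by exact permutation (two-sided, 924 assignments, smallest p 0.00216). For 7 ratios, 0 passed after Benjamini-Hochberg adjustment. Jph1 to Jph2 had a log2 ratio of -2.86 ± 0.13 in CON and -2.71 ± 0.05 in PEA (± SD over 6 libraries, exact p = 0.0238, adjusted p = 0.106). Cacna1s to Ryr1, the voltage sensor to the release channel, had -0.84 ± 0.23 in CON and -1.10 ± 0.13 in PEA (exact p = 0.0303, adjusted p = 0.106). Ryr1 to Ryr3 had 4.16 ± 0.53 and 4.55 ± 0.16 (exact p = 0.0671, adjusted p = 0.157), and Casq1 to Casq2 had -2.72 ± 0.24 and -2.89 ± 0.11 (exact p = 0.165, adjusted p = 0.255). Atp2a1 to Atp2a2 differed by -0.05 (exact p = 0.682) and Mcu to Micu2 by 0.01 (exact p = 0.894). Camk2a to Camk2b differed by 0.38 (exact p = 0.182, adjusted p = 0.255), and without CON 3 by 0.58 (exact permutation test, adjusted p = 0.0303).

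Per length of annotated exon, taken over all transcripts of a gene, the slow or cardiac form was the more abundant for the calcium pump and for calsequestrin. The skeletal form was the more abundant for the release channel. The median ratio of Atp2a1 to Atp2a2 per length was 0.545 in CON and 0.532 in PEA, and that of Casq1 to Casq2 was 0.139 and 0.123. The ratio of Ryr1 to Ryr3 per length was 17.0 in CON and 21.3 in PEA. The cardiac release channel gene Ryr2 of the wider list had 0.0829 normalized counts per kilobase in CON and 0.0895 in PEA, against 65.5 and 77.5 for Ryr1. The members most abundant by this measure were Cacng1, with 2375 normalized counts per kilobase in CON and 2081 in PEA, Bin1 (1991 and 1799) and Casq2 (1259 and 1176). The length used can exceed that of the transcripts expressed, so this order and the ratios per length depend on the annotation.

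For 11 of the 37 members an exon overlaps that of another counted gene on the opposite strand. The library kit named in the methods does not mark strand, so reads in the shared bases cannot be assigned to either gene. Camk2b, with a mean of 22.2 normalized counts, overlaps Ykt6, with 3990, and Clcn1, with 10.2, overlaps Fam131b, with 330, so that the low levels of Camk2b and Clcn1 are uncertain. Atp2a1 overlaps Rabep2, with 506, Ryr3 overlaps Aven, with 435, and Pln overlaps Cep85l, with 104. Hrc, Jsrp1 and Cacng1 overlap no other counted gene.

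A wider list of the same roles was taken from knowledge of the pathway, with earlier results of these data known. Leaving out 4 genes that are not reported here, it held 109 genes, of which 79 were tested. Of these, 9 passed the test (11.4%, against 11.0% of all genes tested), with 5 lower and 4 higher in PEA. The median log2 fold change over the 79 was 0.00. Around the triad, 3 of 15 genes passed (20%), all lower. Tmem38a, the monovalent cation channel TRIC-A of the reticulum, fell from 2819 to 4063 normalized counts in CON (median 3448) to 2159 to 3015 in PEA (median 2509), a log2 fold change of -0.42 (SE 0.09, adjusted p = 0.00768). Smpx, which encodes a small muscle protein of the costamere, had -0.43 (SE 0.11, adjusted p = 0.0186). The remaining gene, Selenon, a selenoprotein of the reticulum, had -0.13 (adjusted p = 0.0442) and is named after its value was seen. Smpx lost its call without PEA 6 (adjusted p = 0.052), and Selenon without each library but CON 2 and CON 4 (0.0534 to 0.102).

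Among the other store genes on the wider list, 2 of 9 passed the test (22.2%, against 11.0% of all genes tested), both higher in PEA, and DESeq2 called 4. Rcn1, the luminal calcium-binding protein reticulocalbin-1, had 3775, 4025 and 4377 normalized counts in CON (lowest, median, highest) and 4498, 4690 and 4973 in PEA, without overlap (log2 fold change 0.23, SE 0.04, adjusted p = 0.00496). Calr, calreticulin, the calcium-binding chaperone of the endoplasmic reticulum in most cells, rose by 0.18 (SE 0.05, adjusted p = 0.037). The call of Calr held without CON 2, CON 4, PEA 1 or PEA 3, and without each of the other libraries the adjusted p was 0.0556 to 0.0911. The other 7 store genes of this list did not pass. They were Atp2a3 (0.74, SE 0.31, adjusted p = 0.129), Rcn3 (0.23, adjusted p = 0.0718), Sdf4 (0.20, adjusted p = 0.0639), Tmco1 (0.03), Calu (0.02), Tmbim6 (0.00) and Rcn2 (-0.01). Of the 9 store genes, 8 had a positive value (median 0.18). An unadjusted p below 0.05 in edgeR was found for 5 of the 9 (55.6%, against 27.4% of all genes tested).

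In the other roles of the wider list, 2 of 20 genes of calcium entry and handling (10%) and 2 of 10 mitochondrial genes (20%) passed the test, against 11.0% of all genes tested, while DESeq2 called 5 of the mitochondrial genes and limma-voom 3. Over the whole list DESeq2 called 14 genes and limma-voom 10, against 9. Among the excitability genes reported, 0 of 9 passed in edgeR and DESeq2 and 1 in limma-voom, and 5 had an unadjusted p below 0.05 in edgeR (55.6%, against 27.4% of all genes tested). Of the genes listed with the sodium-potassium pump, 0 of 7 passed in any of these tools, and 0 had an unadjusted p below 0.05. For the sensor and release channel 0 of 9 passed in edgeR, DESeq2 or limma-voom, and 1 had an unadjusted p below 0.05 in edgeR. Atp2b1, a plasma membrane calcium pump, was lower (log2 fold change -0.27, SE 0.06, adjusted p = 0.0118), as was Vdac1, the outer mitochondrial membrane channel (-0.18, adjusted p = 0.0163). Vdac1 had 7709 to 8739 normalized counts in CON and 6877 to 7481 in PEA, without overlap. Ghitm, an inner mitochondrial membrane protein, was higher (0.20, adjusted p = 0.0198). Nfatc3, a calcium-dependent transcription factor (0.20, adjusted p = 0.0435), was close to the threshold.

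Atp2b1, Vdac1, Tmem38a and Rcn1 passed with each of the 12 libraries left out, and Ghitm failed only without PEA 6 (adjusted p = 0.0505). The call of Nfatc3 was lost without CON 3, CON 4, CON 5, CON 6, PEA 2, PEA 3, PEA 4 or PEA 6 (0.0551 to 0.102). Of the 8 alternative fits that kept all libraries, Nfatc3 passed in 4 (adjusted p up to 0.0737) and Selenon in 6 (up to 0.0828).

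**Figure D5:**
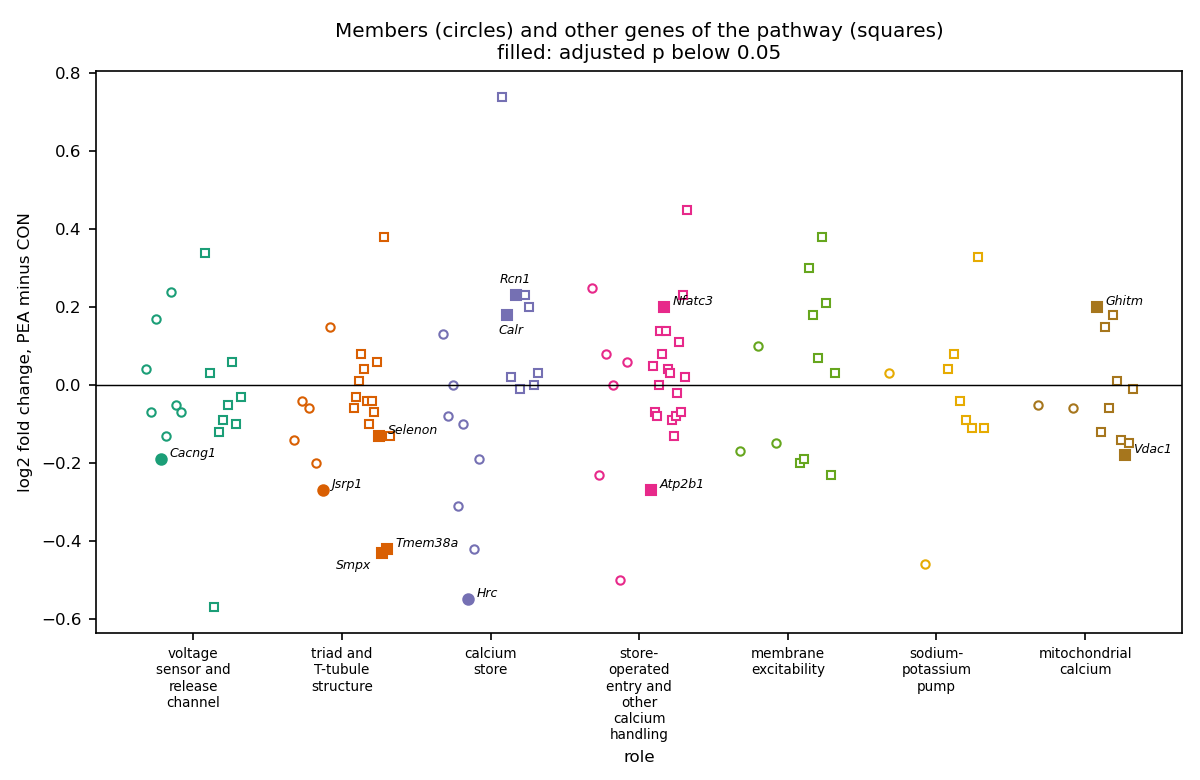
Log2 fold change, PEA minus CON, of the 35 members tested (circles) and 79 other genes of the pathway tested (squares), by role, with genes past the threshold filled and named. The members called (Hrc, Jsrp1, Cacng1) lie below 0, and in the calcium store the called genes of the wider list (Rcn1, Calr) lie above it.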

How the data were processed

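RNA-seq counts of 12 libraries, 6 CON and 6 PEA, were analysed. The labels hold 13 entries, and PEA 2 and its top-up run share 1 row of values and were counted once. The authors trimmed reads, aligned them to mm39 with STAR 4.4.1d in Partek Flow, quantified them to Ensembl genes and deposited estimated counts. Of the nonzero estimated counts, 45% were not whole (tolerance 0.001), and all were rounded. The other table that the authors deposited gives a signal: each library's counts scaled by a single DESeq2 size factor. Of 16382 identifiers, 16343 had a symbol in GENCODE for GRCm39, and 2240 protein-coding genes with higher identifiers were not analysed here.

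edgeR 4.0.16 in R 4.3.3 used TMM (factors 0.988 to 1.02) and the default filter on low counts. Tested on simulated data of this comparison (13056 genes), edgeR recovered 94 of 97 genes changed by 1 and 75 of 98 changed by 0.5 on the log2 scale, with 3.43% false calls. DESeq2 had 10.1% false calls and limma-voom 3.91%. The simulated libraries were independent, and each gene had the same dispersion in CON and PEA. The real libraries include duplicate wells and were spread more in CON, so these rates need not hold for them. Log2 CPM used a prior count of 2. Intervals are 95% intervals for counting error plus library spread. Ratios used scipy 1.17.1, and figures matplotlib 3.10.9. Alternatives were DESeq2 1.42.0, limma 3.58.1 (voom, or log2 of the deposited values plus 1), median-of-ratios size factors, no filter, a mean normalized count of at least 10, the replicate number as a block, removal of the exon length trend, and each library left out. Leaving out libraries for the spread was added after the data were seen. All members were given values. Of the wider list, the called genes with the 2 largest changes in each direction per role were named, and 4 genes of that list are not reported here and enter no count of it. The members and lists were chosen with earlier results of these data known.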

Additional observations from a re-analysis of the deposited data

Results flagged for a closer look

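Each group of 6 libraries of the 37 members was examined for a library far from the others (its gap to the nearest library above 0.625 of the range of the group), which chance gives in about 1 group in 20. Of 74 groups, 3 met this. Micu2 had 2086 normalized counts in CON 2, where the other CON libraries had 1852 to 1927. Pln had 32.4 normalized counts in PEA 2, where the other PEA libraries were listed at 0, and 0.766 in CON 1, where the other CON libraries were listed at 0. The values of Pln come from at most 28 estimated counts. PEA 2 was also the highest library in the cardiac muscle genes Nppa (15.1 normalized counts, all other libraries at 0), Myh6 (211, other PEA libraries 42.9 to 62.7, CON 25.1 to 75.8) and Tnni3 (28.9, other PEA libraries 2.02 to 15.3, CON 10.2 to 25.8). It was not the highest in Nppb (22.0, CON up to 37.6), Myl2 (91.5, CON up to 102) or Actc1 (2270, CON 3006 to 4500).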

How the results depend on the processing

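The number of members called was 3 (11% of all genes tested were called), and 2 to 4 over the 8 alternatives that kept all libraries (8.08% to 12.4%). Hrc was called in every fit, Jsrp1 in all of these 8 and Cacng1 in 7, all but the removal of the exon length trend (adjusted p = 0.0739). With libraries left out in turn the number was 1 to 6. It was 6 of 35 without CON 3, where 8.58% of all genes tested were called. It was 1 without CON 5, PEA 4 or PEA 6, where 7.54%, 7.28% and 5.89% were called. The wider list had 3 to 7 genes called lower and 1 to 7 called higher (3 and 1 without PEA 6, 7 higher without CON 2, 2 higher without CON 3, CON 6, PEA 2 or PEA 4). Without CON 2, 16.7% of all genes tested were called. DESeq2 called 8 genes of the wider list lower, against 5. With libraries left out, the median by role ranged from -0.22 to -0.07 for the store, -0.20 to -0.05 for the triad, -0.08 to -0.01 for the sensor, -0.17 to -0.04 for excitability, 0.01 to 0.06 for entry and handling, -0.31 to -0.15 for the pump and -0.08 to -0.03 for the mitochondrial members. Signs changed only for members without a call. Cav3 turned to 0.02 with limma-voom, 0.05 with the deposited values in limma, 0.03 with the replicate block and 0.01 without the length trend. Atp2a2 turned to -0.0036 with DESeq2, -0.0034 with median-of-ratios factors and -0.03 without the length trend, and Orai1 to -0.0013, -0.01 and -0.00049 with DESeq2, limma-voom and median-of-ratios factors. With libraries left out, ranges crossed 0 for Cacna1s (-0.08 to 0.15), Stac3 (-0.19 to 0.02), Ryr3 (-0.14 to 0.03), Jph1 (-0.14 to 0.01), Cav3 (-0.19 to 0.09), Atp2a1 (-0.17 to 0.0022), Atp2a2 (-0.03 to 0.03), Orai1 (-0.03 to 0.04) and Atp1b1 (-0.02 to 0.09), and for the ratios Atp2a1 to Atp2a2 (-0.13 to 0.01) and Mcu to Micu2 (-0.03 to 0.06). The other ratios kept their sign. Camk2a to Camk2b ranged from 0.24 to 0.58, Ryr1 to Ryr3 from 0.17 to 0.48 and Casq1 to Casq2 from -0.23 to -0.09. Jph1 to Jph2 ranged from 0.12 to 0.18 and Cacna1s to Ryr1 from -0.31 to -0.18. The cause was not tested.

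Same-numbered CON and PEA libraries showed no clear likeness once group means were removed, with correlations from -0.0829 to 0.0649. Pairing by experiment was not tested, since the labels do not give the experiments. With the replicate block 4 members were called, Srl being added (adjusted p = 0.0489), 1570 genes in all against 1452 without the block, and no ratio passed. The lowest counts (Pln, Clcn1, Pvalb, Camk2b, Fxyd1) and the spread of the CON libraries limit what could be detected.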
